A study of Mus musculus with 16 samples.

Results

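The 32 genes described here encode proteins of the presynaptic vesicle and the active zone, and they were picked by their symbols from 16228 genes listed in at least 1 of 16 RNA-seq libraries of fetal mouse brain. All 32 were listed in all 16 libraries. The libraries came from cortex and hippocampus of wild-type (WT) fetuses at embryonic day 18.5, after prenatal exposure to an enriched environment (EE) or under standard habitation (SH). Details of the enrichment, such as its length, were not given in the sources used here. There were 5 EE and 5 SH cortex libraries and 3 EE and 3 SH hippocampal libraries, with expression as FPKM, the fragments of a gene relative to its transcript length and to the depth of the library. The labels name no fetuses or litters, so p-values measure only the spread between these libraries, which may be technical. The study asked how the enriched environment bears on fetal neurons, and the comparisons below are of hippocampus with cortex and of EE with SH.

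A presynaptic terminal holds neurotransmitter in vesicles, docks and primes them at a protein lattice called the active zone, and fuses them with the plasma membrane when calcium enters. SNARE proteins on the vesicle and on the plasma membrane drive the fusion, synaptotagmins sense calcium, and complexins hold and then release the SNARE assembly. After fusion the vesicle membrane is taken back by endocytosis and refilled by transporters, and in late gestation forebrain neurons are still building these terminals.

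The reads that could be recovered from the FPKM values numbered 15027249 to 20102583 per library in cortex replicates 1 to 3, 16041625 to 20649625 in hippocampus and 11448342 to 12146666 in cortex replicates 4 and 5. The least covered value of a member was 100 reads (Rims1), and the median over members and libraries was 2501 reads. Cortex SH replicate 3 stood apart: its summed FPKM was 510540, against 338885 to 395736 in the other 15 libraries, and it was the lowest of 10 cortex libraries for 22 members and the highest for 6. The members' differences between the tissues are therefore given with and without it. Of 9 genes of choroid plexus, the epithelium that makes cerebrospinal fluid, 6 were listed in all libraries. In hippocampus these 6 summed to 17010 FPKM in SH replicate 1, 10533 in EE replicate 2 and 5109 in EE replicate 1. They summed to 44.4, 46.2 and 158 FPKM in SH replicate 2, EE replicate 3 and SH replicate 3. Of 10 genes of hippocampal fields 6 were higher in the libraries labelled hippocampus and 2 were lower (summed FPKM 122 to 169, against 84.4 to 95.8 in cortex replicates 1 to 3 and 69.8 in its SH replicate 3), and of 10 genes of cortical projection neurons 5 were lower and 1 was higher.

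The table of RefSeq promoters used here (assembly GRCm38.p6) matched 27 of the 32 members. The 250 bases before the start are shown for Sncb, Dnm1 and Slc17a7, whose differences between hippocampus and cortex on the log2(FPKM + 1) scale were the most negative of the members with all libraries, and for Syt11, the 1 member that was higher there, read 5′ to 3′ along the gene. They lie at chr13:54766596-54766845 on the minus strand, chr2:32353330-32353579 on the minus strand, chr7:45163671-45163920 on the plus strand and chr3:88772600-88772849 on the minus strand. The start is that of the promoter table. For Syt11 it lies inside the annotated gene, which begins at 88775164 on the minus strand, so the bases shown do not precede that beginning. Capitals mark GCGTG, the core of the xenobiotic response element bound by the AHR named in the series title, or TGACG, a part of the cAMP response element, on either strand.
Sncb: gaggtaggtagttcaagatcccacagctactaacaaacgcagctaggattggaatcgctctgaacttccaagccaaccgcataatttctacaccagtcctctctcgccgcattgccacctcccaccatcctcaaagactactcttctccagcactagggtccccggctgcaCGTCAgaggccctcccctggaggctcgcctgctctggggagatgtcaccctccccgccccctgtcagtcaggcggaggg
Dnm1: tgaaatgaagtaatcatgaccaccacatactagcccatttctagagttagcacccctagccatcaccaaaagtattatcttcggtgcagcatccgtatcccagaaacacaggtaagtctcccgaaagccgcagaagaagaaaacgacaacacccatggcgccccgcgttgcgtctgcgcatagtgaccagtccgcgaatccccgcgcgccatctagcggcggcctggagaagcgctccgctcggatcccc
Slc17a7: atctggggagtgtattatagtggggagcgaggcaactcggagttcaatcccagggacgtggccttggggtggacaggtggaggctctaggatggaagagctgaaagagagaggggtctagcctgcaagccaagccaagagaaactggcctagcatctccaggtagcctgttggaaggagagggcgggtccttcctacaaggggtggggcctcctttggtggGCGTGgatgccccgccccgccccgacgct
Syt11: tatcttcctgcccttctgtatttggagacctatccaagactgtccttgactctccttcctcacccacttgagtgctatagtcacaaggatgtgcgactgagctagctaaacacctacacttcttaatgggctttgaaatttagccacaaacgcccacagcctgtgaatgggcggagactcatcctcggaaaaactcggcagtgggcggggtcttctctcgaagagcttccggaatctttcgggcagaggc
Sncb had 1 match to TGACG, read on the other strand as CGTCA, and Slc17a7 had 1 match to GCGTG. Dnm1 and Syt11 had 0 matches to either motif in the bases shown. Over the whole 300-base windows, which add 50 bases after the start, GCGTG was in 20 of the 37 windows of members (54.1%), against 32.4% of all 32851 windows. TGACG was in 9 of 37 (24.3%), against 20.8%. The member windows had a median GC content of 61%, against 52.7% over all windows, and both motifs hold a CG step. A match of letters is a description and not a binding site.

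In hippocampus the presynaptic transcripts were lower than in cortex in most of the members: over replicates 1 to 3, 18 members fell, 1 rose and 13 did not pass the test. Of 13138 genes tested, 10.8% were lower and 24.6% higher (limma, adjusted p of 0.05 or less). The median log2 difference of the members was -0.50, against 0.09 over all genes. The members' summed FPKM was 977 to 1531 in the 6 hippocampal libraries and 1761 to 1919 in the 6 cortex ones. Scaling by median of ratios moved the median of all genes to -0.01. The share of calls that were higher was then 52.1%, against 69.4% without scaling. With this scaling 2105 of 13138 genes were lower and 2285 higher. The members had 19 lower and 0 higher in the same fit, with a median of -0.62. In bulk tissue, fewer cells of a type and less RNA per cell cannot be told apart.

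**Figure D1:**
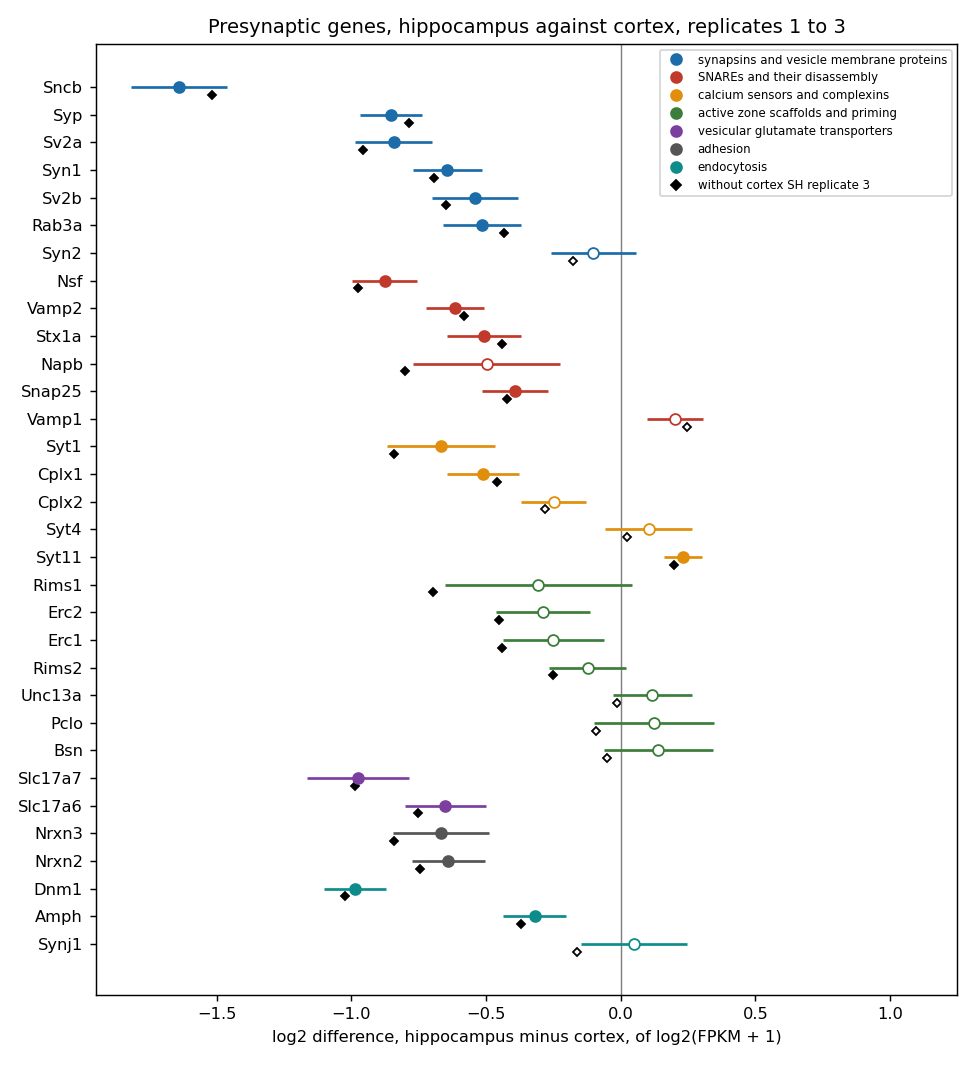
Log2 difference of each of the 32 genes, hippocampus minus cortex of replicates 1 to 3, on the log2(FPKM + 1) scale with its SE, coloured by role. Filled circles passed the limma threshold and open ones did not. Small diamonds give the value without cortex SH replicate 3, filled where it passed. The 18 genes that fell lie to the left of zero, Syt11 lies to the right, and the 7 active zone genes are open circles with all libraries.

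Among the synapsins and vesicle membrane proteins 6 of 7 fell in hippocampus, with a median log2 difference of -0.64. Sncb encodes beta-synuclein, a protein of presynaptic terminals, and lies on chromosome 13 from 54758860 to 54766595 of mm10. Sncb measured 80.2, 89.6 and 89.6 FPKM in EE cortex replicates 1 to 3 and 89.4, 95.7 and 147 in SH cortex. It measured 28.5, 25.2 and 43.9 FPKM in EE and 21.3, 33.5 and 34.3 in SH hippocampus. Every hippocampal library lay below every cortex library, and SH replicate 3 was the highest of the cortex. The hippocampal mean was 31.1 ± 7.98 FPKM against 98.6 ± 24.3 (SD, n = 6 each), or 31.6% (log2 difference -1.64 ± 0.18 (SE), limma adjusted p = 3.30e-05, and -1.52 without cortex SH replicate 3).

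Syp encodes synaptophysin, a major membrane protein of the vesicle. Syp measured 169.6, 196 and 184 FPKM in EE cortex replicates 1 to 3 and 179, 189 and 243 in SH cortex, and 114, 101 and 105 FPKM in EE and 87.4, 132 and 102 in SH hippocampus. The groups did not overlap, and hippocampal SH replicate 2 was the highest of its tissue and SH replicate 1 the lowest (log2 difference -0.85 ± 0.11 (SE), limma adjusted p = 0.000163, and -0.79 without cortex SH replicate 3). Sv2a encodes a vesicle glycoprotein that the antiepileptic drug levetiracetam binds. Sv2a measured 70.6, 85.7 and 78.1 FPKM in EE cortex replicates 1 to 3 and 72.6, 71.1 and 44.5 in SH cortex, and 40.9, 33.9 and 42.9 FPKM in EE and 29.9, 46.4 and 37.1 in SH hippocampus. Of the cortex libraries only SH replicate 3 reached into the hippocampal range (log2 difference -0.84 ± 0.14 (SE), limma adjusted p = 0.000774, and -0.96 without cortex SH replicate 3). Sv2b measured 11.7, 11.1 and 10.6 FPKM in EE cortex replicates 1 to 3 and 9.82, 10.2 and 5.76 in SH cortex, and 5.76, 6.21 and 10.2 FPKM in EE and 4.21, 6.43 and 6.30 in SH hippocampus. This relative of Sv2a was the scarcer of the pair in every library, and its tissues overlapped with and without SH replicate 3 (log2 difference -0.54 ± 0.16 (SE), limma adjusted p = 0.0195, and -0.65 without cortex SH replicate 3). Rab3a, a small GTPase of the vesicle, ran from 107 to 192 (median 159) FPKM in hippocampus and from 188 to 286 (median 209) in cortex (log2 difference -0.52 ± 0.15 (SE), limma adjusted p = 0.0154, and -0.43 without cortex SH replicate 3). In replicates 1 to 3 it overlapped because hippocampal SH replicate 2 was above cortex EE replicate 1. Cortex EE replicate 5 and SH replicates 4 and 5 were also inside the hippocampal range, at 171, 167 and 172 FPKM.

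The synapsins, which hold vesicles in a reserve pool, differed from each other. Syn1 measured 65.3, 64.3 and 63.2 FPKM in EE cortex replicates 1 to 3 and 55.8, 63.0 and 48.7 in SH cortex, and 39.2, 35.5 and 41.1 FPKM in EE and 30.5, 53.4 and 31.7 in SH hippocampus (log2 difference -0.64 ± 0.13 (SE), limma adjusted p = 0.00210, and -0.69 without cortex SH replicate 3). Of cortex replicates 1 to 3 only SH replicate 3 lay inside the hippocampal range of Syn1. Cortex EE replicate 5 and SH replicates 4 and 5 were inside it as well, at 52.4, 50.3 and 49.9 FPKM. Syn2 measured 24.4, 26.2 and 23.7 FPKM in EE cortex replicates 1 to 3 and 24.6, 24.7 and 18.4 in SH cortex, and 26.0, 20.9 and 16.04 FPKM in EE and 17.3, 33.1 and 21.5 in SH hippocampus (log2 difference -0.10 ± 0.16 (SE), limma adjusted p = 0.644, and -0.18 without cortex SH replicate 3). Syn2 overlapped between the tissues, with its highest value in hippocampal SH replicate 2. The log2 ratio of Syn1 to Syn2 within a library, in which the scaling of that library cancels, was 0.80 ± 0.29 in hippocampus and 1.35 ± 0.09 in cortex (SD, n = 6 each). It was lower in hippocampus by an exact permutation test within housing (two-sided p = 0.01, Benjamini-Hochberg 0.05 over 10 pairs). The difference was -0.55, and -0.53 without cortex SH replicate 3. Hippocampal EE replicate 3 lay inside the cortex range, at 1.36.

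Of the 6 SNAREs and the proteins that take them apart, 4 fell in hippocampus: Vamp2, Snap25, Stx1a and Nsf. Nsf measured 54.7, 61.9 and 54.2 FPKM in EE cortex replicates 1 to 3 and 57.2, 55.3 and 37.2 in SH cortex. Nsf, the ATPase that separates spent SNARE complexes, measured 27.0, 28.0 and 29.4 FPKM in EE and 26.3, 35.4 and 24.9 in SH hippocampus. All hippocampal libraries lay below all cortex ones (log2 difference -0.88 ± 0.12 (SE), limma adjusted p = 0.000198, and -0.98 without cortex SH replicate 3). Vamp2 measured 245, 249.1 and 265 FPKM in EE cortex replicates 1 to 3 and 229.7, 251 and 282 in SH cortex, and 163, 146 and 193 FPKM in EE and 134, 191 and 169.8 in SH hippocampus. Vamp2 encodes the synaptobrevin of most central synapses and had the highest mean FPKM of the 32 in cortex, without overlap between the tissues (log2 difference -0.62 ± 0.11 (SE), limma adjusted p = 0.000969, and -0.58 without cortex SH replicate 3).

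The plasma membrane SNAREs were lower as well. Stx1a, syntaxin 1A, ran from 28.0 to 48.5 (median 40.7) FPKM in hippocampus and from 50.6 to 68.4 (median 53.5) in cortex, without overlap (log2 difference -0.51 ± 0.14 (SE), limma adjusted p = 0.0126, and -0.44 without cortex SH replicate 3). Snap25 ran from 50.1 to 84.5 (median 75.5) FPKM in hippocampus and from 81.4 to 103 (median 94.2) in cortex, and the groups overlapped through cortex SH replicate 3 (log2 difference -0.39 ± 0.12 (SE), limma adjusted p = 0.0247, and -0.42 without cortex SH replicate 3). Cortex SH replicate 4 was inside the hippocampal range of Snap25 as well, at 83.3 FPKM. Napb, a SNAP cofactor of Nsf, ran from 9.56 to 14.4 (median 11.1) FPKM in hippocampus and from 4.95 to 23.6 (median 20.5) in cortex. Its log2 difference of -0.50 did not pass with all libraries (limma adjusted p = 0.176), while -0.80 without SH replicate 3 did (limma adjusted p = 8.71e-05), as did -0.66 with all libraries and the length trend removed (0.0288).

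Vamp1, the close relative of Vamp2, did not follow it. Vamp1 measured 2.96, 2.75 and 3.98 FPKM in EE cortex replicates 1 to 3 and 3.31, 3.05 and 3.93 in SH cortex, and 4.70, 3.76 and 3.85 FPKM in EE and 3.36, 3.82 and 4.32 in SH hippocampus (log2 difference 0.20 ± 0.10 (SE), limma adjusted p = 0.150, and 0.24 without cortex SH replicate 3). These levels overlapped, and the sign of the log2 difference turned to -0.01 under quantile normalization and -0.02 with the length trend removed. The log2 ratio of Vamp1 to Vamp2 was -5.38 ± 0.22 in hippocampus and -6.26 ± 0.17 in cortex (SD, n = 6 each), so Vamp1 was far the scarcer in both. All 6 hippocampal ratios lay above all 6 cortex ones (difference 0.88, two-sided exact permutation p = 0.005, the smallest that 400 arrangements allow, Benjamini-Hochberg 0.05). The difference was 0.89 without cortex SH replicate 3.

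Of the 10 pairs of related members these 2, Syn1/Syn2 and Vamp1/Vamp2, passed. Cplx1/Cplx2 was next (difference -0.27, exact permutation p = 0.04, Benjamini-Hochberg 0.133). The other 7 pairs had differences from -0.25 for Sv2a/Sv2b to 0.30 for Slc17a6/Slc17a7 and Benjamini-Hochberg values from 0.163 to 0.865 by the same exact permutation test. Without cortex EE replicate 1 or without EE replicate 3, 1 pair passed. Without cortex SH replicate 3, 3 pairs passed, the third being Rims1/Rims2 (difference -0.46, exact permutation p = 0.01, Benjamini-Hochberg 0.0333, against -0.11 with all libraries). A ratio cancels the scaling of a library but not a dependence on transcript length. Syn1 and Syn2 have 3299 and 7031 bases of exon, and Vamp1 and Vamp2 have 10167 and 3809. The part of length in the ratios was not tested.

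**Figure D2:**
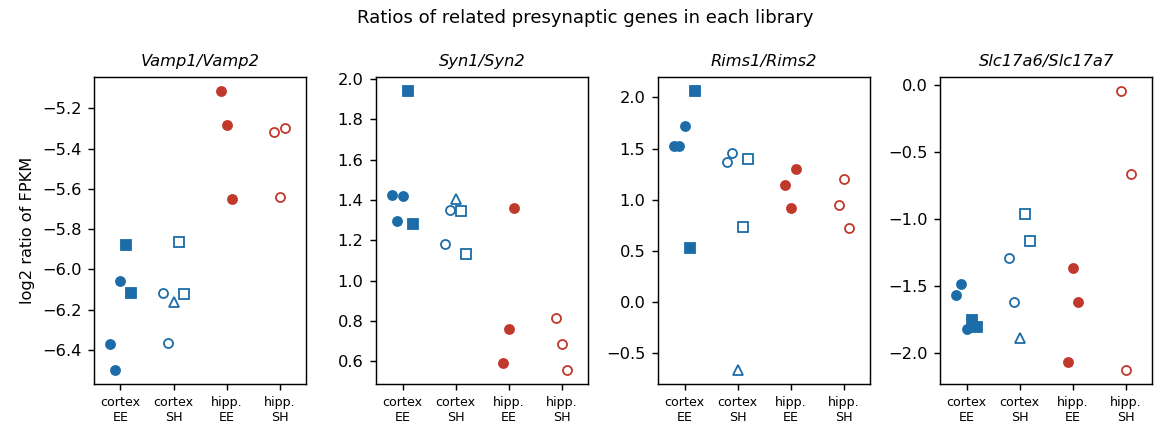
Log2 ratio of the FPKM of 2 related members in each library, for 4 pairs, with 1 point per library. Filled points are EE and open points SH, blue is cortex and red hippocampus, squares are cortex replicates 4 and 5, and the triangle is cortex SH replicate 3. The hippocampal Vamp1/Vamp2 ratios lie above the cortex ones of replicates 1 to 3, and the Rims1/Rims2 ratio of SH replicate 3 is the lowest of that pair.

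Among the calcium sensors and complexins, Syt1 and Cplx1 fell, Syt11 rose, and Syt4 and Cplx2 did not pass. Syt1 measured 72.1, 78.0 and 70.2 FPKM in EE cortex replicates 1 to 3 and 62.6, 64.4 and 31.2 in SH cortex. Syt1, the sensor of fast release, measured 35.8, 36.8 and 44.8 FPKM in EE and 27.5, 54.4 and 33.1 in SH hippocampus. SH replicate 3 was the lowest cortex library and the only one of replicates 1 to 3 inside the hippocampal range (log2 difference -0.67 ± 0.20 (SE), limma adjusted p = 0.0205, and -0.84 without cortex SH replicate 3). Cortex SH replicate 4 was inside it as well, at 48.4 FPKM. Complexins bind the assembled SNAREs. Cplx1 measured 64.5, 62.4 and 71.9 FPKM in EE cortex replicates 1 to 3 and 64.4, 70.3 and 80.7 in SH cortex, and 55.8, 45.5 and 48.7 FPKM in EE and 33.1, 61.8 and 47.8 in SH hippocampus, without overlap (log2 difference -0.51 ± 0.13 (SE), limma adjusted p = 0.0101, and -0.46 without cortex SH replicate 3). Cplx2 measured 117, 115 and 111 FPKM in EE cortex replicates 1 to 3 and 104, 104 and 95.0 in SH cortex, and 95.3, 78.9 and 94.1 FPKM in EE and 66.6, 111 and 103 in SH hippocampus, where Cplx2 overlapped (log2 difference -0.25 ± 0.12 (SE), limma adjusted p = 0.125, and -0.28 without cortex SH replicate 3). Syt4 encodes a synaptotagmin of intracellular vesicles. Syt4 measured 108, 83.7 and 81.4 FPKM in EE cortex replicates 1 to 3 and 79.6, 80.5 and 56.7 in SH cortex, and 104, 77.3 and 97.5 FPKM in EE and 54.5, 103 and 94.1 in SH hippocampus, and hippocampal SH replicate 1 and cortex SH replicate 3 were the lowest of their tissues (log2 difference 0.10 ± 0.16 (SE), limma adjusted p = 0.647, and 0.02 without cortex SH replicate 3).

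Syt11, a synaptotagmin that does not sense calcium for release and takes part in membrane traffic, lies on chromosome 3 from 88744700 to 88775164. Syt11 measured 73.7, 77.2 and 73.1 FPKM in EE cortex replicates 1 to 3 and 76.5, 74.6 and 65.7 in SH cortex. In hippocampus it measured 86.0, 82.6 and 85.6 FPKM in EE and 84.4, 85.1 and 94.8 in SH hippocampus. Every hippocampal library was above every cortex one, by a mean of 86.4 ± 4.29 against 73.5 ± 4.13 FPKM (SD, n = 6 each; log2 difference 0.23 ± 0.07 (SE), limma adjusted p = 0.0229, and 0.20 without cortex SH replicate 3). The call was lost with median-of-ratios scaling (log2 difference 0.11) and with the length trend removed (0.12). It was also lost with the replicate block, without cortex EE replicate 3, without hippocampal SH replicate 3 and without the 3 hippocampal libraries rich in choroid plexus RNA. It held in 17 of 23 alternatives, with a positive difference in all.

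**Figure D3:**
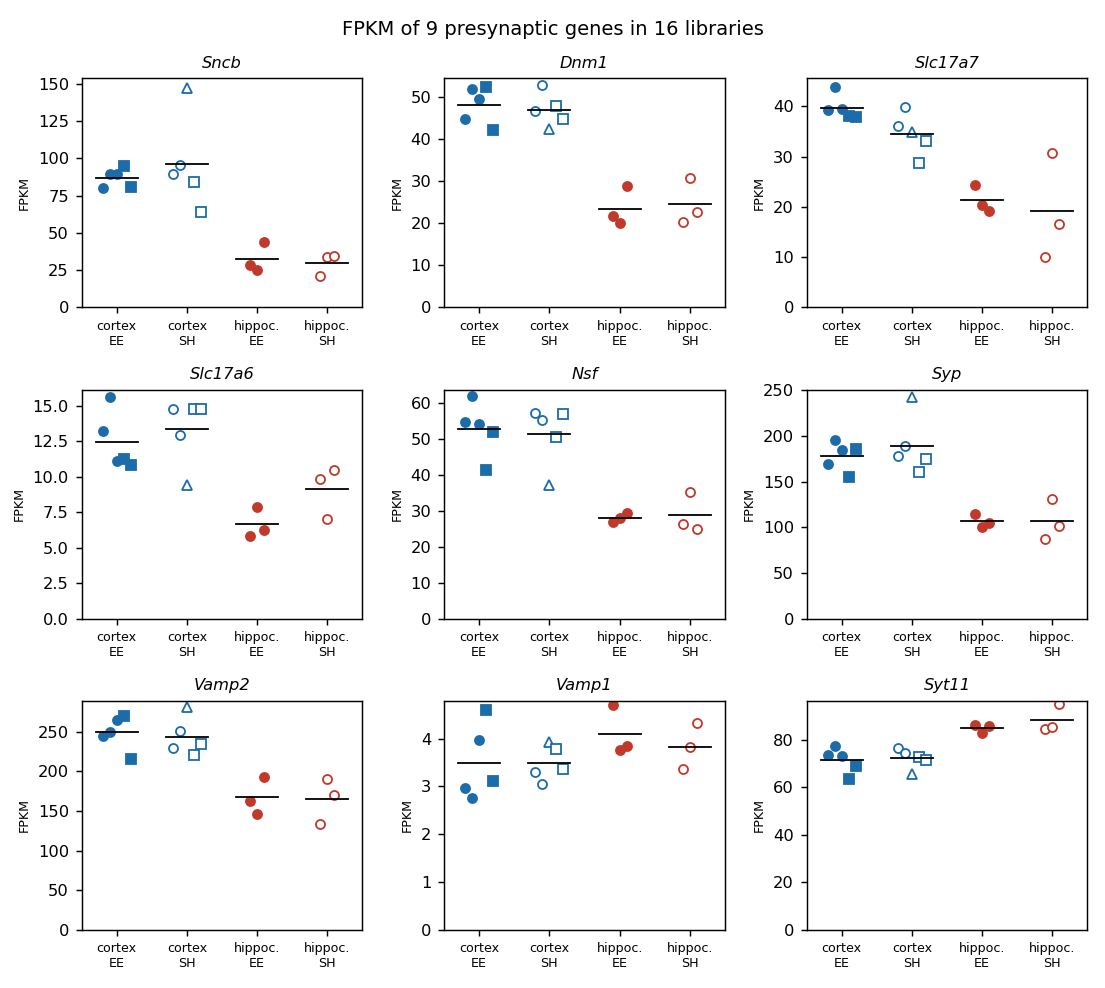
FPKM of 9 presynaptic genes in all 16 libraries, with 1 point per library and bars at the group means. Filled points are EE and open points SH, blue is cortex and red hippocampus, squares are cortex replicates 4 and 5, and the triangle is cortex SH replicate 3. Sncb, Dnm1, Nsf, Syp and Vamp2 lie lower in every hippocampal library than in cortex replicates 1 to 3, while Vamp1 overlaps and Syt11 lies higher.

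None of the 7 active zone members passed with all libraries and the values as deposited (limma, 0 at an unadjusted p under 0.05 and 0 by limma-voom), and 4 of them fell without cortex SH replicate 3. With all libraries kept, Erc1, Erc2 and Rims2 fell when the trend on transcript length was removed, and Rims2 under quantile normalization. Bsn and Pclo encode the giant scaffolds bassoon and piccolo. Bsn measured 8.47, 9.80 and 8.05 FPKM in EE cortex replicates 1 to 3 and 7.06, 7.18 and 3.04 in SH cortex, and 6.98, 7.36 and 7.45 FPKM in EE and 6.25, 11.0 and 7.95 in SH hippocampus. Pclo measured 5.07, 5.81 and 4.68 FPKM in EE cortex replicates 1 to 3 and 3.96, 3.88 and 1.20 in SH cortex, and 3.23, 4.38 and 4.94 FPKM in EE and 3.82, 5.84 and 3.69 in SH hippocampus. Both overlapped, with cortex SH replicate 3 the lowest of all 12, and their log2 differences of 0.14 and 0.12 became -0.05 and -0.09 without that library. Unc13a, which encodes the priming factor Munc13-1, ran from 14.5 to 21.9 (median 18.3) FPKM in hippocampus and from 9.53 to 19.99 (median 18.1) in cortex. Its log2 difference was 0.12 with all libraries and -0.02 without that one. Bsn, Pclo and Unc13a passed in neither fit.

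The RIM and ELKS scaffolds were the 4 that passed without that library. Rims1 measured 9.79, 11.2 and 10.8 FPKM in EE cortex replicates 1 to 3 and 9.17, 8.74 and 1.06 in SH cortex, and 4.62, 5.26 and 7.22 FPKM in EE and 5.32, 6.48 and 5.47 in SH hippocampus. Rims1, which links vesicles to calcium channels, was thus lower in every hippocampal library than in the other 5 cortex libraries of replicates 1 to 3. In cortex EE replicate 4 it was inside the hippocampal range, at 4.82 FPKM. Its log2 difference was -0.31 with all libraries (limma adjusted p = 0.521) and -0.70 without SH replicate 3 (0.000285). Rims2 measured 3.41, 3.89 and 3.28 FPKM in EE cortex replicates 1 to 3 and 3.56, 3.19 and 1.67 in SH cortex, and 2.09, 2.78 and 2.92 FPKM in EE and 2.76, 2.81 and 3.31 in SH hippocampus. For Rims2 the log2 differences were -0.12 and -0.25 (limma adjusted p = 0.0414 in the second), and the tissues overlapped in both. Erc1 measured 20.2, 22.1 and 20.2 FPKM in EE cortex replicates 1 to 3 and 17.0, 16.7 and 7.62 in SH cortex, and 12.1, 13.6 and 15.2 FPKM in EE and 12.4, 16.3 and 13.1 in SH hippocampus. Erc2 measured 19.2, 16.8 and 17.9 FPKM in EE cortex replicates 1 to 3 and 14.5, 14.0 and 7.09 in SH cortex, and 11.8, 10.6 and 13.6 FPKM in EE and 8.46, 13.1 and 12.2 in SH hippocampus. Erc1 and Erc2 encode ELKS proteins that bind RIM and bassoon. Without SH replicate 3 neither overlapped in replicates 1 to 3, and the log2 difference of Erc1 went from -0.25 to -0.44 (limma adjusted p = 0.00244) and that of Erc2 from -0.29 to -0.45 (0.00528). Cortex EE replicates 4 and 5 were inside the hippocampal range for Erc1, at 16.26 and 15.9 FPKM. For Erc2 cortex EE replicate 4 was inside it, at 12.7 FPKM. With all libraries and the length trend removed the log2 differences were -0.53 for Erc1, -0.50 for Erc2 and -0.34 for Rims2, which passed, and -0.47 for Rims1, which did not (limma adjusted p = 0.204). Under quantile normalization Rims2 had -0.34 (0.0454 by limma).

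Both vesicular glutamate transporters fell in hippocampus. Slc17a7 measured 39.2, 43.8 and 39.4 FPKM in EE cortex replicates 1 to 3 and 36.2, 39.8 and 34.9 in SH cortex. Slc17a7 encodes VGLUT1, the transporter of most cortical and hippocampal excitatory terminals in the adult, and lies on chromosome 7 from 45163949 to 45176142. In hippocampus it measured 24.4, 20.4 and 19.3 FPKM in EE and 10.1, 30.7 and 16.7 in SH hippocampus, with the lowest value in SH replicate 1 and the highest in SH replicate 2. All hippocampal values were below all of cortex replicates 1 to 3, at a mean of 52.1% of theirs (log2 difference -0.98 ± 0.19 (SE), limma adjusted p = 0.00192, and -0.99 without cortex SH replicate 3). Cortex SH replicate 4 was inside the hippocampal range, at 28.8 FPKM. Slc17a6 measured 13.2, 15.7 and 11.2 FPKM in EE cortex replicates 1 to 3 and 14.8, 12.98 and 9.45 in SH cortex, and 5.84, 7.90 and 6.26 FPKM in EE and 9.82, 7.05 and 10.5 in SH hippocampus. Slc17a6 encodes VGLUT2, the transporter of early and of thalamic terminals, and overlapped only through cortex SH replicate 3 (log2 difference -0.65 ± 0.15 (SE), limma adjusted p = 0.00509, and -0.75 without cortex SH replicate 3). The ratio of the 2 transporters did not pass (log2 ratio -1.31 ± 0.82 and -1.61 ± 0.22, SD, n = 6 each, exact permutation p = 0.420, difference 0.30, and 0.22 without cortex SH replicate 3).

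Both neurexins, presynaptic adhesion molecules that bind postsynaptic partners, fell. Nrxn3 measured 4.64, 5.05 and 4.04 FPKM in EE cortex replicates 1 to 3 and 3.88, 3.64 and 1.43 in SH cortex, and 1.62, 1.82 and 2.26 FPKM in EE and 2.14, 2.20 and 1.45 in SH hippocampus (log2 difference -0.67 ± 0.18 (SE), limma adjusted p = 0.0120, and -0.84 without cortex SH replicate 3). Cortex SH replicate 3 was below all hippocampal libraries and the other 5 cortex libraries were above them. Nrxn2 measured 76.5, 82.9 and 81.6 FPKM in EE cortex replicates 1 to 3 and 72.0, 77.1 and 48.0 in SH cortex, and 46.1, 39.5 and 56.9 FPKM in EE and 37.8, 54.2 and 43.2 in SH hippocampus, with the same library alone in the hippocampal range (log2 difference -0.64 ± 0.14 (SE), limma adjusted p = 0.00326, and -0.75 without cortex SH replicate 3).

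Of the endocytic members, Dnm1 and Amph fell and Synj1 did not pass. Dnm1 measured 44.7, 51.9 and 49.5 FPKM in EE cortex replicates 1 to 3 and 46.7, 52.7 and 42.4 in SH cortex. Dnm1, on chromosome 2 from 32308471 to 32353338, encodes dynamin 1, the GTPase that pinches off vesicles, and measured 21.6, 19.98 and 28.7 FPKM in EE and 20.2, 30.7 and 22.7 in SH hippocampus. Its groups did not overlap and its hippocampal mean was 49.98% of cortex (log2 difference -0.99 ± 0.12 (SE), limma adjusted p = 6.04e-05, and -1.03 without cortex SH replicate 3). Amph, which recruits dynamin to curved membrane, ran from 17.2 to 29.2 (median 20.3) FPKM in hippocampus and from 22.1 to 29.1 (median 28.1) in cortex and passed narrowly (log2 difference -0.32 ± 0.12 (SE), limma adjusted p = 0.0491, and -0.37 without cortex SH replicate 3). It held its call in 7 of 23 alternatives, with a log2 difference of -0.43 to -0.24 over them, and lost it with 10 of 12 libraries left out singly. Synj1, a lipid phosphatase of uncoating, was at 12.3 ± 1.31 and 12.4 ± 3.83 FPKM (SD, n = 6 each; log2 difference 0.05 ± 0.20 (SE), limma adjusted p = 0.874, and -0.16 without cortex SH replicate 3).

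How many members passed changed with the libraries left out and with removal of the length trend. With all libraries and the length trend removed, 23 members were lower and 0 higher, where 19.3% of 12620 genes were lower. Without cortex SH replicate 3, 23 members were lower and 1 higher, of 13149 genes tested, of which 43.7% passed (15.2% lower and 28.5% higher). All 19 earlier calls were kept, and Erc1, Erc2, Napb, Rims1 and Rims2 were added. Without the 3 hippocampal libraries rich in choroid plexus transcripts, 9 members were lower and 0 higher (5.99% and 10.5% of 12950 genes), and the members' median was -0.25. Over all genes 16.5% passed in that fit, against 35.4% with all libraries. No other set of libraries of that size was left out, so the part of the smaller group was not tested. The 9 members that passed in it were Sncb, Dnm1, Slc17a7, Nsf, Syp, Sv2a, Slc17a6, Vamp2 and Cplx1, with log2 differences from -1.38 for Sncb to -0.41 for Cplx1. Without those 3 hippocampal libraries and cortex SH replicate 3 together, 20 were lower and 1 higher (1558 lower and 2463 higher of 12970 genes), with a median of -0.34 and 17 of the 19 first calls among them. The same 9 passed in all 23 alternatives that were run for this comparison, and none of the 19 turned its sign in any of them.

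All 6 hippocampal libraries lay below all 6 cortex ones for 8 members (5.5% of all genes) and above for 1 (14.9%). Without cortex SH replicate 3 they lay below for 19 (9.83%) and above for 1 (17.8%). Within hippocampus SH replicate 1, with the most choroid plexus RNA, was the lowest of 6 for 21 members, and SH replicate 2, with the least, was the highest for 17. Markers of other cells moved between the tissues as well. All 10 GABAergic neuron genes were lower in hippocampus (summed FPKM 182 to 320, against 599 to 788 in cortex replicates 1 to 3 and 1161 in its SH replicate 3), as were 9 of 10 striatal genes (16.6 to 48.0, against 106 to 147), of which Isl1 was listed at 0 in a library. Of 12 neuronal genes that are not synaptic, 4 were lower and 0 higher (2329 to 3709, against 4099 to 4473, and 4764 in SH replicate 3), and 9 were lower without cortex SH replicate 3. Of 10 radial glia and astrocyte genes 7 were higher and 1 lower (1285 to 2031, against 1105 to 1471, and 1836 in SH replicate 3), and 6 of 7 intermediate progenitor genes were higher (102 to 160, against 55.7 to 68.9). Cajal-Retzius genes were higher for 6 of 7 and choroid plexus genes for 2 of 8. Genes of meninges (3 of 7), oligodendrocyte lineage (2 of 7) and erythroid cells (1 of 5) were lower in part, those of endothelium and mural cells were 2 higher and 1 lower of 10, those of thalamus and other diencephalon 1 higher and 1 lower of 5, and none of 8 microglial genes passed. Without cortex SH replicate 3, 0 erythroid and 0 radial glia and astrocyte genes were lower, while 10 striatal, 3 hippocampal field, 1 Cajal-Retzius and 2 diencephalon genes were. The 6 erythroid genes listed in all libraries summed to 4073 FPKM in that library. In the other cortex libraries of replicates 1 to 3 they summed to 1137 to 1617. The part of these cell types in the differences of the members was not tested.

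Other presynaptic genes, from a list of 72, also fell more often than they rose. Of 68 tested in this comparison 33 were lower and 9 higher, with a median log2 difference of -0.35, and 41 were lower and 10 higher without cortex SH replicate 3. The lowest that passed were Syt6 -2.10, Slc32a1 -1.38, Syt13 -1.30, Doc2a -1.07 and Unc13c -0.90. Slc32a1 encodes the vesicular transporter of GABA and measured 11.2 ± 2.46 FPKM in hippocampus and 30.5 ± 3.63 in cortex (SD, n = 6 each). The highest that passed were Syt9 0.61, Rab3d 0.58, Unc13b 0.56, Slc18a2 0.48 and Ppfia1 0.45. Syn3, another synapsin, had a log2 difference of -0.48 and did not pass. Slc17a8, which encodes VGLUT3, was too low to be tested here. Between EE and SH, 0 of 66 of these genes passed in cortex and 0 of 66 in hippocampus (limma), with medians of 0.11 and 0.04.

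Cortex SH replicate 3 differed from SH replicates 1 and 2 by an amount that tended to follow transcript length. Members of 7000 bases of exon or more (16 of 32) had a median log2 ratio of -1.02 to the mean of SH replicates 1 and 2, and shorter ones (16) of -0.17. Over all genes the medians were -0.74 for 3026 long genes and 0.06 for 9362 shorter ones. The Spearman rho with length over the 32 members was -0.72, as a description. Rims1, of 7362 bases, was at 11.8% of SH replicates 1 and 2, Napb, of 7051 bases, at 26.0% and Pclo, the longest member at 22457 bases, at 30.5%. Length did not order all members: Syn2, of 7031 bases, was at 74.6% and Vamp1, of 10167 bases, at 124%. Sncb, the shortest at 2145 bases, was at 159%, and Rab3a at 137%.

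**Figure D4:**
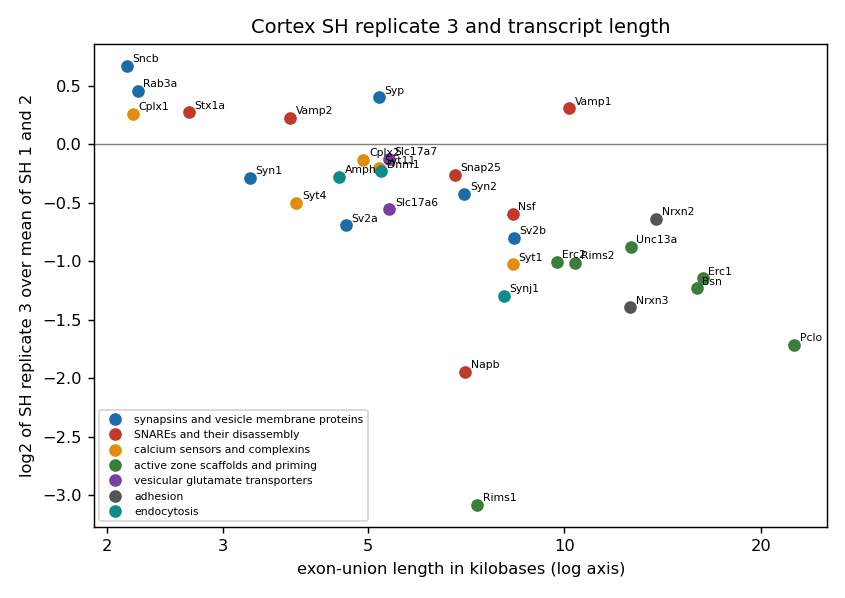
Log2 ratio of FPKM in cortex SH replicate 3 to the mean of SH replicates 1 and 2 for each of the 32 members, against the length of the union of their exons in kilobases on a log axis, coloured by role. Short members such as Sncb and Rab3a lie above zero, and Rims1, Napb and Pclo are the lowest.

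Between EE and SH cortex none of the 32 members passed over all genes (limma, 0 members, with 2 at an unadjusted p under 0.05, and 0 by limma-voom). Of 12519 genes tested, 1 passed (0.00799%) and 934 had an unadjusted p under 0.05. A total of 24 of 32 members had a positive difference, EE minus SH, and the median was 0.11, against 45.9% of all genes and a median of -0.02. Without cortex SH replicate 3 it was 18 members and a median of 0.01, against 43.6% of all genes. The members' log2 differences ran from -0.10 for Stx1a to 0.53 for Rims1.

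Slc17a7, Syn1, Syt1 and Unc13a had the smallest p-values, and the first 2 were those with an unadjusted p under 0.05. Slc17a7 measured 39.2, 43.8, 39.4, 38.0 and 37.9 FPKM in EE replicates 1 to 5 and 36.2, 39.8, 34.9, 28.8 and 33.2 in SH replicates 1 to 5. Each EE value was above the SH mean of its own set, while the groups overlapped (log2 difference 0.20 ± 0.08 (SE), limma adjusted p = 0.637). Syn1 measured 65.3, 64.3, 63.2, 76.0 and 52.4 FPKM in EE replicates 1 to 5 and 55.8, 63.0, 48.7, 50.3 and 49.9 in SH replicates 1 to 5. It was above the SH mean in 5 of 5 EE libraries, and in each set all EE values lay above all SH values (log2 difference 0.25 ± 0.11 (SE), limma adjusted p = 0.657). Syt1 measured 72.1, 78.0, 70.2, 61.9 and 63.4 FPKM in EE replicates 1 to 5 and 62.6, 64.4, 31.2, 48.4 and 72.6 in SH replicates 1 to 5. The lowest value was that of SH replicate 3 and the groups overlapped through replicates 4 and 5 (log2 difference 0.36 ± 0.21 (SE), limma adjusted p = 0.737). Unc13a measured 19.1, 18.0, 19.99, 24.7 and 17.1 FPKM in EE replicates 1 to 5 and 16.8, 18.3, 9.53, 21.2 and 16.4 in SH replicates 1 to 5. It was above the SH mean in 4 of 5 EE libraries (log2 difference 0.29 ± 0.18 (SE), limma adjusted p = 0.746). Without SH replicate 3 the log2 differences of these 4 were 0.19, 0.21, 0.15 and 0.12, and 0 members had an unadjusted p under 0.05.

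The active zone members had opposite signs in the 2 sets of cortex replicates. In replicates 1 to 3 all 7 were positive, with a median log2 difference of 0.62, and without SH replicate 3 all 7 were positive with a median of 0.26. In replicates 4 and 5, 1 of 7 was positive and the median was -0.24. Over all 32 members the medians were 0.21 (25 positive), 0.11 without SH replicate 3 (23 positive) and -0.07 in replicates 4 and 5 (15 positive). Of all genes 46.7%, 36.9% and 48.1% were positive in these fits. In replicates 1 to 3 all EE libraries lay above all SH ones for 14 members (11.2% of genes) and below for 1 (18.7%), and without SH replicate 3 again for 14 (12.1%) and 1 (25.6%). The 14 included Bsn, Pclo, Rims1, Erc1 and Erc2, and the lower one was Stx1a. In replicates 4 and 5 they lay above for 3 of 32 members (21.7% of genes) and below for 8 (24.9%). The share of members below was thus near that of all genes. The 8 were Rims2, Erc1, Erc2, Nrxn3, Cplx2, Sv2a, Slc17a6 and Syt11.

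The difference between the sets was tested as an interaction of set and housing, replicates 4 and 5 minus replicates 1 to 3. None of 12519 genes passed (0.0%; limma, 2433 at an unadjusted p under 0.05, and 0 by limma-voom). Of the 32 members 5 had an unadjusted p under 0.05, a smaller share than that of all genes. They were Erc2, Nrxn3, Cplx2, Bsn and Erc1, with values from -1.06 for Nrxn3 to -0.40 for Cplx2. All 7 active zone values were negative. The members' median was -0.32, and -0.12 without SH replicate 3, when 3 genes passed (0.0239%), 0 of them members. Each set was also fitted alone. In replicates 4 and 5 alone 436 genes passed (3.47% of 12556) and 0 members, and in replicates 1 to 3 alone 0 genes and 0 members passed (0.0% of 12870; limma, 1195 genes and 1 member at an unadjusted p under 0.05).

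Transcript length moved with the same split. The exon unions of the 7 active zone members were 7362 to 22457 bases long. Over all genes, Spearman's rho between length and the log2 deviation of a library from the mean of its set was 0.61, 0.57 and 0.41 in EE replicates 1 to 3 and 0.22, 0.24 and -0.70 in SH. In replicates 4 and 5 it was -0.20 and -0.32 in EE and 0.40 and 0.23 in SH. EE was thus the higher in the first set and SH in the second, as for the active zone members. With the trend on length removed from each library the members' median of the interaction was -0.12, and the part of length in each member's difference was not tested.

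The ratio of bassoon to piccolo was the 1 pair that separated the housing groups in cortex. The log2 ratio of Bsn to Pclo was 0.71 ± 0.07 in EE, from 0.64 to 0.78, and 0.99 ± 0.21 in SH, from 0.84 to 1.34 (SD, n = 5 each). All 5 EE ratios lay below all 5 SH ones, and SH replicate 3 was the highest. The mean difference within sets was -0.28 (exact permutation p = 0.0167, the smallest that 120 arrangements allow, Benjamini-Hochberg 0.167 over 10 pairs), and -0.20 without SH replicate 3. It did not pass the correction, and 0 pairs did.

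**Figure D5:**
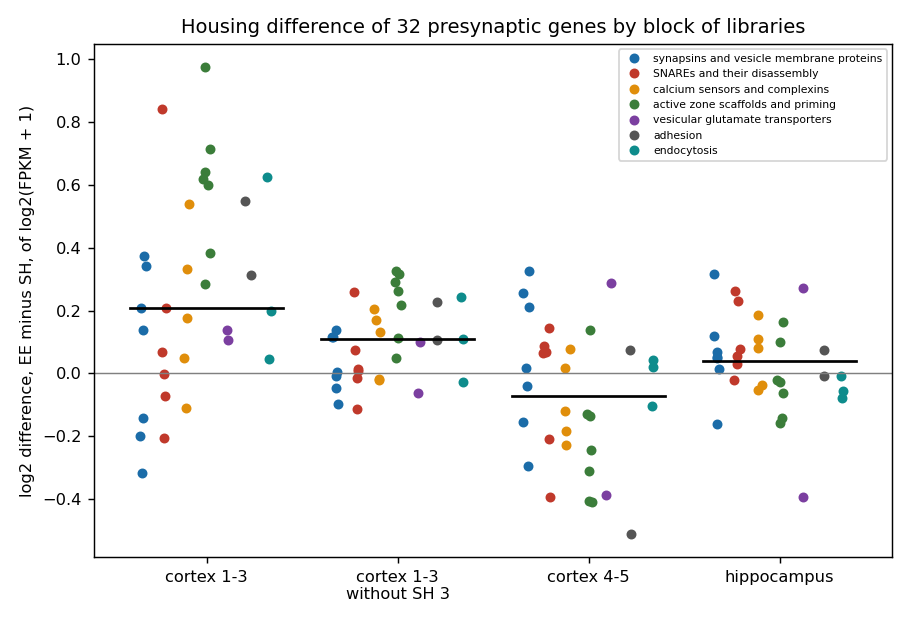
Log2 difference of the 32 members, EE minus SH on the log2(FPKM + 1) scale, with 1 point per gene coloured by role and a bar at the median, in cortex replicates 1 to 3, in the same without SH replicate 3, in cortex replicates 4 and 5, and in hippocampus. The active zone genes are positive in replicates 1 to 3 with and without SH replicate 3, and 6 of 7 are negative in replicates 4 and 5.

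Between EE and SH hippocampus none of the members passed, and the libraries of all 32 overlapped (limma, 0 members and 0 of 13324 genes, 0.0%, with 0 members and 503 genes at an unadjusted p under 0.05, and 0 by limma-voom). All EE libraries lay above all SH ones for 2.59% of genes and below for 7.33%. The members' median log2 difference was 0.04, with 18 of 32 positive, against 47.2% of all genes. Slc17a6 measured 5.84, 7.90 and 6.26 FPKM in EE and 9.82, 7.05 and 10.5 in SH, where 1 EE value lay above the lowest SH one (log2 difference -0.39 ± 0.17 (SE), limma adjusted p = 0.9996). Sv2b measured 5.76, 6.21 and 10.2 FPKM in EE and 4.21, 6.43 and 6.30 in SH, the high value being EE replicate 3 (log2 difference 0.32 ± 0.23 (SE), limma adjusted p = 0.9996). Stx1a measured 46.4, 35.1 and 48.5 FPKM in EE and 28.0, 46.3 and 34.8 in SH (log2 difference 0.26 ± 0.20 (SE), limma adjusted p = 0.9996). Snap25 measured 83.5, 65.2 and 84.5 FPKM in EE and 50.1, 82.9 and 68.1 in SH (log2 difference 0.23 ± 0.19 (SE), limma adjusted p = 0.9996). In the last pair SH replicate 1, with the most choroid plexus RNA, was the lowest library.

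The median turned with single libraries of hippocampus. It was -0.10 without SH replicate 1, the lowest of 6 for most members, and 0.17 without SH replicate 2, the highest for most, and 6 and 29 of 32 members were positive, against 47.6% and 41.7% of all genes. Without EE replicate 3 it was -0.04, without EE replicate 2 it was 0.11, and without EE replicate 1 and SH replicate 3 it was 0.04 and 0.03. The EE difference in hippocampus minus that in cortex, an interaction of tissue and housing over replicates 1 to 3, passed for none of 13138 genes (0.0%; limma, 988 genes and 0 members at an unadjusted p under 0.05, and 0 by limma-voom). The members' median was -0.22, and -0.05 without cortex SH replicate 3.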

How the data were processed

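Total RNA of 16 libraries was extracted with Trizol and made into libraries with NEBNext Ultra, per the labels' protocols. The deposited values are FPKM per gene symbol, 1 table a library, as computed by the authors, and mm10, HISAT2 2.0.4, cutadapt 1.9, StringTie 1.3.4d, DESeq2 and edgeR are named, with no roles, per the submitters' processing notes. A hippocampal table holds 15225 genes, one of cortex replicates 1 to 3 holds 15975 and one of cortex replicates 4 and 5 holds 13428, and a gene left out of a table was treated as missing there.

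The members and the lists were chosen with earlier results of these data known. A gene entered a fit when every library of it listed the gene and its mean FPKM reached 1, and was tested on log2(FPKM + 1) with no further scaling, in limma 3.58.1 (R 4.3.3) with a trended variance prior, and p-values were adjusted by Benjamini-Hochberg over all genes tested at 0.05. Hippocampus was compared with cortex in replicates 1 to 3 with housing as a covariate, EE with SH in cortex with the set of replicates as a covariate, and EE with SH in hippocampus alone. A fold on this scale understates the change of low genes. Ratios of 2 members were tested by exact permutation in Python 3.11.15. Promoters were searched on both strands for GCGTG and TGACG. Figures were drawn with matplotlib 3.10.9. The code was tested on simulated data.

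Whole reads were recovered from the steps of the FPKM values for 99.9% of genes, and limma-voom was run on them as an alternative chosen after seeing the data, as were the fits without the hippocampal libraries rich in choroid plexus RNA. Other alternatives were another pseudocount, filter or scaling, removal of the trend on transcript length (exon unions of GENCODE M21, which names exactly 1 gene for 93.3% of symbols), a replicate block, and leaving out each library. Values in every library are given for the members that passed the tissue test with the largest differences, for members of pairs and for the 4 smallest p-values of each housing comparison. Of the other presynaptic genes, the 5 highest and 5 lowest that passed are given, with Syn3, Slc17a8 and Slc32a1 whatever their values; some other preset names are not reported here.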

Additional observations from a re-analysis of the deposited data

Results flagged for a closer look

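In cortex each member was examined in the 5 EE and the 5 SH libraries, 64 groups in all, for a library whose gap to the nearest other value took up more than the share of the range that Dixon's 95% limit for 5 values allows. Chance alone gives such a value in about 1 in 20 groups, and 7 were found. The SH replicate 3 library gave 4 of them, all low: Rims1 at 1.06 FPKM (the other SH libraries 8.13 to 9.81), Erc1 at 7.62 FPKM (16.7 to 19.9), Synj1 at 5.08 FPKM (12.3 to 15.1) and Napb at 4.95 FPKM (18.6 to 22.9). These belong to the members with long exon unions, which were mostly lower in that library as described above. In EE replicate 4, Stx1a stood high at 60.5 FPKM (50.6 to 52.9 in the other EE libraries) and Napb low at 11.0 FPKM (21.6 to 23.6). Slc17a7, one of the members with the smallest p for EE against SH, was high in EE replicate 2 at 43.8 FPKM (37.9 to 39.4).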

How the results depend on the processing

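Of the 19 members that passed in the tissue comparison, 9 passed under all 23 alternatives, 10 lost the call under at least 1 and 0 reversed. Without the 3 hippocampal libraries rich in choroid plexus RNA, 9 members passed, all 9 lower, with a median of -0.25, where 16.5% of all genes passed. Leaving out 1 library at a time gave 16 to 24 called members, with 27.9% to 43.7% of all genes called, and 1 to 3 pairs that passed. Members that had not passed changed sign as follows. Quantile normalization gave Vamp1 -0.013, Bsn -0.046, Pclo -0.080 and Synj1 -0.090. Removing the length trend gave Vamp1 -0.018, Bsn -0.14, Pclo -0.19, Unc13a -0.13 and Synj1 -0.14. Median-of-ratios scaling gave Syt4 -0.014 and Synj1 -0.061. Leaving out the choroid plexus libraries together with cortex SH replicate 3 gave Synj1 -0.041. Leaving out 1 library at a time gave ranges from -0.051 to 0.22 for Bsn, -0.092 to 0.23 for Pclo, -0.015 to 0.18 for Unc13a and -0.16 to 0.12 for Synj1. The lowest of each was without cortex SH replicate 3, and Synj1 was also negative, at -0.03, without hippocampus SH replicate 2. The cause of these changes was not tested. The split of calls over all genes moved from 69.4% higher to 52.1% under median-of-ratios scaling, 51.0% under quantile normalization and 51.0% with the length trend removed.

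Same-numbered libraries had correlations of their deviations from -0.56 to 0.44. Between cortex and hippocampus of the same housing they ran from -0.03 to 0.28. With so few libraries in a group these values cannot show whether the numbers pair the libraries. The numbers were not taken as pairs in the main fits. With the replicate block 17 members passed in the tissue comparison, where 33.1% of all genes passed. Amph (limma adjusted p = 0.0579) and Syt11 (0.0639) did not. With the block 0 members passed in cortex, in hippocampus and in both interactions. EE against SH in hippocampus without all 3 choroid plexus libraries was not run.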

Other observations

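The members' levels differed between the hippocampal libraries. Of the 32 members, 29 lay above the mean of the 6 hippocampal libraries in SH replicate 2, 25 in EE replicate 3, 15 in EE replicate 1, 11 in SH replicate 3, 6 in EE replicate 2 and 2 in SH replicate 1. Their summed FPKM was 1531, 1390, 1319, 1265, 1152 and 977 in the same order. The 6 choroid plexus genes listed in all libraries summed to 44.4, 46.2, 5109, 158, 10533 and 17010 FPKM in that order. The neuronal genes that are not synaptic summed to 3499, 3709, 3471, 3141, 2822 and 2329 FPKM. SH held both the highest and the lowest library. Their part in the levels of the members was not tested.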
